A study of Mus musculus with 56 samples.

Results

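The genes described here serve antigen presentation and the interferon response, and were measured in mouse lung after oleic acid (OA), a fatty acid that injures the lung when it reaches it through the blood. They were chosen by symbol alone: H2-, Ifi, Isg and Oas genes, Irf, Gbp and Stat genes with a number, Tap1, Tap2, B2m, Mx1 and Mx2. This gave 76 cDNA clones of 51 symbols, out of 7625 clones of 5883 symbols with a gene name on the membrane. They comprised 9 clones of 7 MHC class I genes (the Tap transporter included), 6 clones of 5 class II genes and 58 clones of 37 other genes. These 37, with Ifi, Irf, Isg, Oas, Gbp, Stat or Mx symbols, are called interferon genes below. That name rests on the symbol and does not show that interferon regulates each of them. The last 3 clones were of H2-Ke2 and H2-Ke6, which lie in the H2 region and carry its prefix but are not MHC molecules. H2-D1, H2-Ab1, Isg15, Mx1 and Ifit1 were not found under these names, and Irf9 is listed under its older symbol Isgf3g.

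MHC class I molecules pair a heavy chain such as H2-K1 with beta-2-microglobulin (B2m), are loaded with peptides that Tap1 and Tap2 bring into the endoplasmic reticulum, and are shown by nearly all nucleated cells. Class II molecules, with chains such as H2-Aa, are loaded with the help of H2-DM, which H2-DO (H2-Oa with H2-Ob) restrains. They are carried mainly by B cells, dendritic cells and macrophages. Interferons act on genes through the interferon-stimulated response element (ISRE), which a complex with Stat2 and Irf9 binds, and through the gamma-activated site (GAS). In lung these genes are best known for their induction by infection.

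Female C57Bl/6J mice aged 7 weeks received OA or physiological serum in the tail vein, and RNA of whole lung was labelled with radioactive phosphorus and hybridized to nylon membranes. The OA groups held 4 mice at 1 h, 6 at 1.5 h, 7 at 3 h, 4 at 4 h, 3 at 18 h and 3 at 24 h, paired into an early stage (10 mice), an intermediate stage (11 mice) and a late stage (6 mice). Of the 8 serum mice, 2 were taken at 1 h, 1 at 1.5 h, 2 at 3 h, 2 at 18 h and 1 at 24 h, and none at 4 h. Values are log2 signals averaged over the microarrays of a mouse, and differences are log2 differences; a clone is compared with itself only, since signals of different clones are not on 1 scale. In whole lung, fewer cells of a type and less RNA per cell cannot be told apart.

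A mean signal above 8.95, the 95th percentile of 2159 spots without a gene name, was reached by 29 of 76 member clones, beside 36.6% of all named clones. These were 6 of 9 class I, 4 of 6 class II and 17 of 58 interferon clones, and the others are called dim below. Spotted clones of near-identical genes (the class I heavy chains, the Oas1 genes, Ifi204 and Ifi205, the Gbp genes) can bind each other's RNA, so these symbols are uncertain. All 3 clones of lung epithelial markers were above that level. The 2 microarrays of a mouse, available for 23 mice, differed by a median of 0.21 over the member clones and correlated across spots at a median r of 0.939, beside 0.931 for different mice of 1 time point, and 2 of these 46 microarrays correlated best with the other microarray of their mouse. Mice carry a number after the letter L in their titles that early and late mice never shared, so that number and the stage cannot be told apart there.

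All 51 symbols matched mouse RefSeq genes, 3 of them by an older symbol, and 41 had a promoter of 300 bases (250 before the start site and 50 from it on, build GRCm38.p6). The core letters of an ISRE (GAAA, any 2 bases, GAAA, on either strand) were in promoters of 2 of 4 class I, 0 of 5 class II and 8 of 30 interferon genes, beside 3.99% of all genes with a promoter. The letters of a GAS (TTC, any 3 bases, GAA, alike on both strands) were in 0 of 4, 0 of 5 and 7 of 30, beside 9.55%. CCAAT, on either strand, was in 4 of 4, 5 of 5 and 14 of 30, beside 41.1%. Matches of these letter sets can overlap in part. Promoters of 5 genes that hold a match are shown with the matched letters in capitals, as a description of the letters and not as a site. Of these, B2m and H2-Aa were not called over the OA times or between stages. Ifi204, which was called, had no promoter here. Irf5, Irf3 and H2-Ke2, called between stages, held none of the 3 letter sets. B2m (chr2:122147437-122147736 (plus strand)) and Ifi205 (chr1:174031706-174032005 (minus strand)) are shown for the ISRE letters, Irf1 (chr11:53769764-53770063 (plus strand)) and Irf8 (chr8:120736108-120736407 (plus strand)) for the GAS letters, and H2-Aa (chr17:34287774-34288073 (minus strand)) for CCAAT.
B2m: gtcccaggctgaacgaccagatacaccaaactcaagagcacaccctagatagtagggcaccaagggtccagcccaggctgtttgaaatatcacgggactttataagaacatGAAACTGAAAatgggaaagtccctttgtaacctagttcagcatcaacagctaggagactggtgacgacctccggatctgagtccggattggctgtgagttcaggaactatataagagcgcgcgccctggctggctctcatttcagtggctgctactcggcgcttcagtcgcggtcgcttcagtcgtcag
Ifi205: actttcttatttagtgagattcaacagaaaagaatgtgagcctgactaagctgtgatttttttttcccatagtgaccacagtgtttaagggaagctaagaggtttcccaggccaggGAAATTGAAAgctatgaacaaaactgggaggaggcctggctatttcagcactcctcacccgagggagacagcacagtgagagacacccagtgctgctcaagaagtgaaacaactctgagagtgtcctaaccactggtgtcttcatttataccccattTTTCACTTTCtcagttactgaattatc
Irf1: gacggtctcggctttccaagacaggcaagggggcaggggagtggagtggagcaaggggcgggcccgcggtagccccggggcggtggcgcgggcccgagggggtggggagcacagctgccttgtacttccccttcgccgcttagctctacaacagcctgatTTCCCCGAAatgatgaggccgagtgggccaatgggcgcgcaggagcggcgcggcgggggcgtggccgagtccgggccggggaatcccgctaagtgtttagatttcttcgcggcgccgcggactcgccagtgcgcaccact
Irf8: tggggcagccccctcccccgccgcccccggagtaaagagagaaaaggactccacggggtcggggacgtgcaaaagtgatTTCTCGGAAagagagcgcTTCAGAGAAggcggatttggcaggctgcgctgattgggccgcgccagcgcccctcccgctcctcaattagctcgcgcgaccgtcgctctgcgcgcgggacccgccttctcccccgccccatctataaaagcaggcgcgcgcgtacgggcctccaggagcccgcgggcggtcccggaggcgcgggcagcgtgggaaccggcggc
H2-Aa: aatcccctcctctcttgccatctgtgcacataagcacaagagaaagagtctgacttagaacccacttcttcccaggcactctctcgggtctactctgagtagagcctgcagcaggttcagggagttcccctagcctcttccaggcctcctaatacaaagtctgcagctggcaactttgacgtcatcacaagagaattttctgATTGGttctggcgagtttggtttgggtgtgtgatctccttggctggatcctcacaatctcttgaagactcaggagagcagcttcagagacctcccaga

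The match lay 139 bases before the start site in B2m, 90 before it in Irf1 and 48 before it in H2-Aa. Irf8 held 2 matches, 171 and 153 bases before the start, and Ifi205 held 1 before the start (134 bases) and 1 after it.

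Few of these genes discriminated between the times after OA. In a limma fit over all named clones, 1 of 76 members, the brighter clone of Ifi204, differed over the 6 time points at an adjusted p under 0.05, a share of 1.32% beside 2.01% of all clones. At an unadjusted p under 0.05 there were 16 members (21.1%) beside 15.8%. From the early to the intermediate stage 1 member rose (Ifi205, beside 1.56% of all clones) and 3 fell (Ifi204, Irf8 and H2-Ke2, beside 1.01%). In all, 4 members (5.26%) were called, beside 2.57% of all clones. From the intermediate to the late stage 1 rose (Irf3, beside 1.44%) and 1 fell (Irf5, beside 1.74%), in all 2 (2.63%) beside 3.19%. Between late and early 1 was higher (Irf1, beside 1.18%) and 0 lower (beside 0.472%), in all 1.32% of members beside 1.65%. Unadjusted, the 3 stage comparisons held 23, 19 and 21 members. These were 30.3%, 25% and 27.6% of the members, above the 16.7%, 15.6% and 20.6% of all clones. None of the 9 class I and 6 class II clones was called in this fit. Irf8, Irf5, Irf3, H2-Ke2 and H2-Ob are named after their values were seen.

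The intervals bound the size of these differences. The 95% interval lay inside a 2-fold change either way for 74 of 76 members between intermediate and early (97% of all clones), 73 between late and intermediate (96.9%) and 73 between late and early (95.6%). The median late minus early difference was 0.15 over the class I clones, 0.13 over class II and 0.04 over interferon clones, beside -0.002 over all clones.

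**Figure D1:**
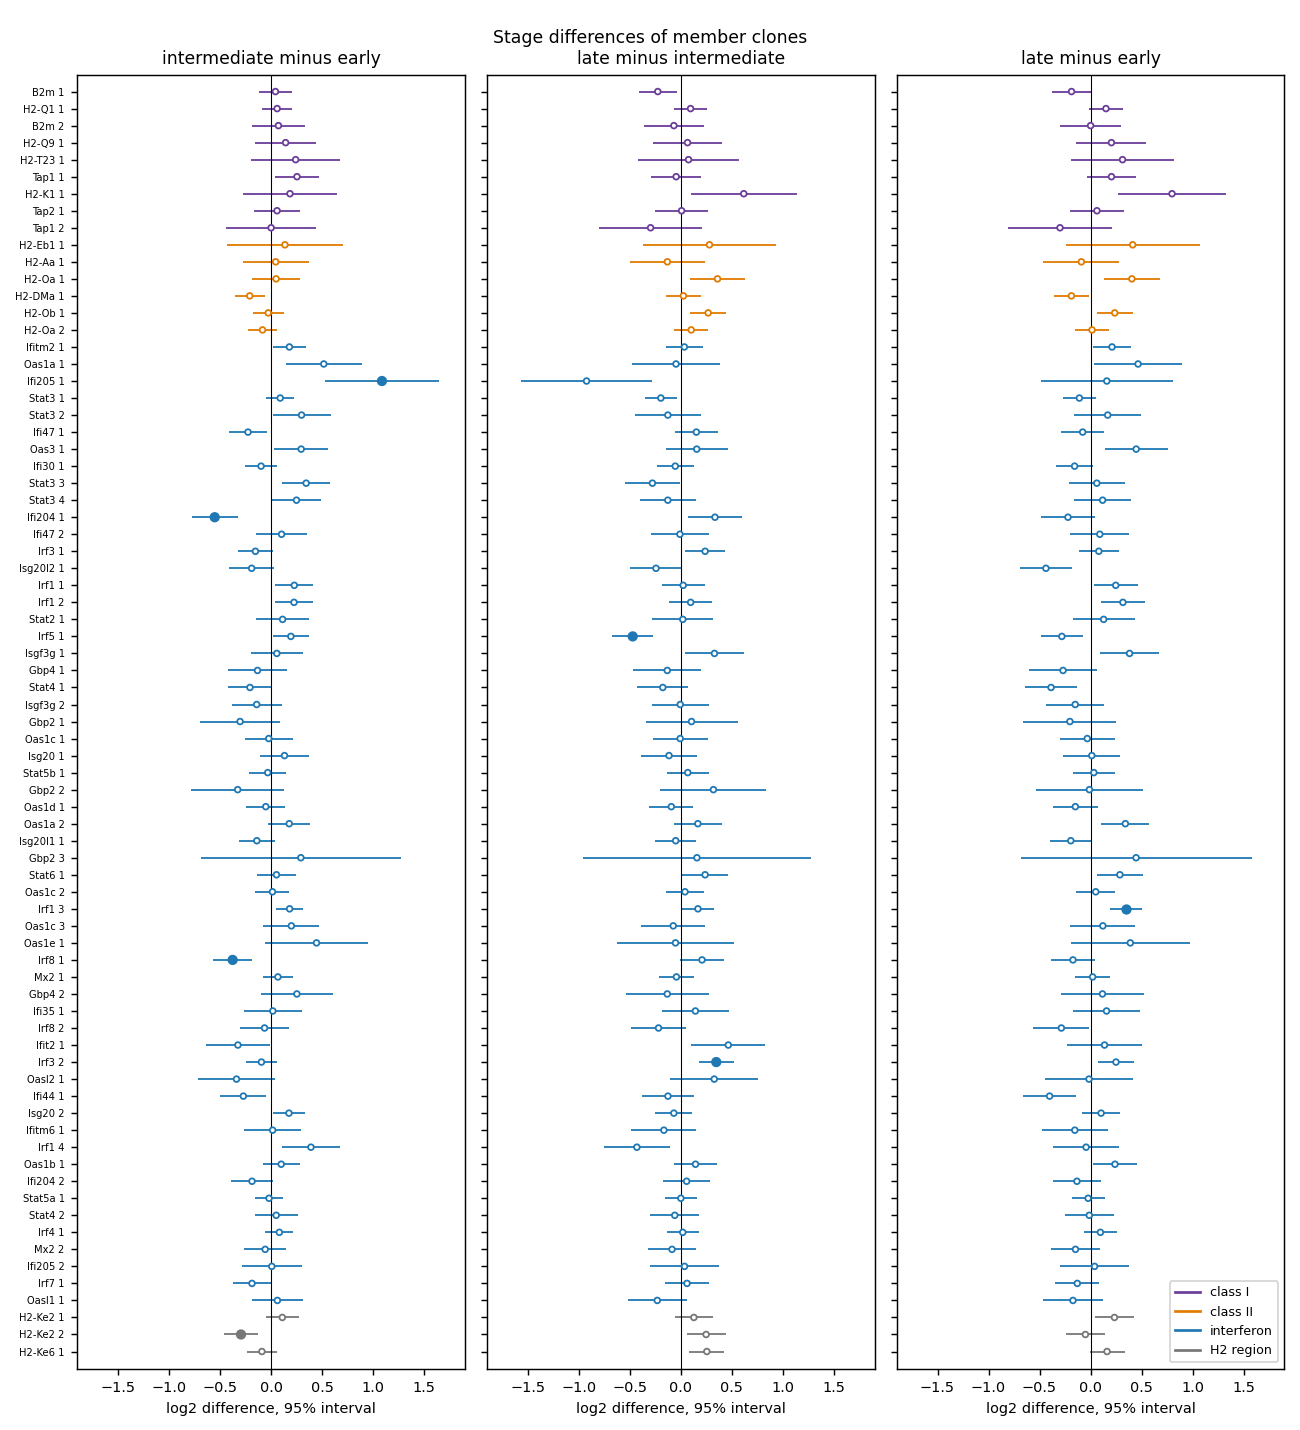
Log2 differences between stages (x axes) for member clones, with the number of the clone after each symbol. Bars are 95% intervals of the limma fit and filled points have an adjusted p under 0.05, of which there are 4, 2 and 1.

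The class I light chain B2m was bright. Its time point means spanned 0.47 and 0.49 in its 2 clones, beside a median of 0.33 over all clones. Its brighter clone read 13.51, 13.82, 13.92 and 14.12 at 1 h, 13.57 to 14.04 (median 13.82) at 1.5 h and 13.74 to 14.01 (median 13.90) at 3 h. It read 13.57, 13.82, 13.84 and 14.06 at 4 h, 13.24, 13.40 and 13.63 at 18 h and 13.67, 13.92 and 13.93 at 24 h. The 18 h mice were lowest, 2 of the 3 below every other mouse. Late minus intermediate was -0.23 ± 0.09 (SE, adjusted p = 0.215). The other B2m clone also had its lowest mean at 18 h, 12.90 ± 0.10 (SD, n = 3), and its late minus intermediate difference was -0.07 ± 0.14 (adjusted p = 0.884).

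H2-K1, a heavy chain that shows peptides to CD8 T cells, had the widest range of time point means among the class I clones. It read 8.36, 8.45, 8.75 and 8.77 at 1 h, 7.96 to 8.51 (median 8.21) at 1.5 h, 7.86 to 9.62 (median 8.89) at 3 h and 7.66, 7.72, 8.66 and 9.60 at 4 h. Late mice read 8.76, 9.09 and 9.46 (18 h) and 9.11, 9.40 and 9.44 (24 h). All 6 late mice were above the early median of 8.41, though the lowest of them fell within the early range. Late minus early was 0.80 ± 0.26, 1.74-fold, with a 95% interval of 0.27 to 1.33 (adjusted p = 0.0939). With the microarrays as units and the mouse as a random block it was 0.85 (adjusted p = 0.0413). That setting called more of all clones, 4.59% beside 1.65% between late and early. Between intermediate and early it called 4.93% beside 2.57%, and between late and intermediate 4.75% beside 3.19%. With the letter L number as a block, no member was called between late and early. Its mean signal of 8.67 was dim.

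The other class I clones moved less. H2-Q1, a non-classical heavy chain, had time point means between 13.39 and 13.60, and late minus early was 0.15 (-0.02 to 0.32). For H2-Q9 it was 0.20 (-0.14 to 0.55) and for H2-T23, which presents leader peptides, 0.31 (-0.19 to 0.82). The brighter Tap1 clone differed by 0.25 (0.04 to 0.46, adjusted p = 0.209) between intermediate and early, its dimmer clone by -0.002 (-0.44 to 0.44) and Tap2 by 0.06 (-0.17 to 0.28). None of these 5 genes had an adjusted p under 0.05 in a stage comparison. Tap2 and the dimmer Tap1 clone were dim.

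**Figure D2:**
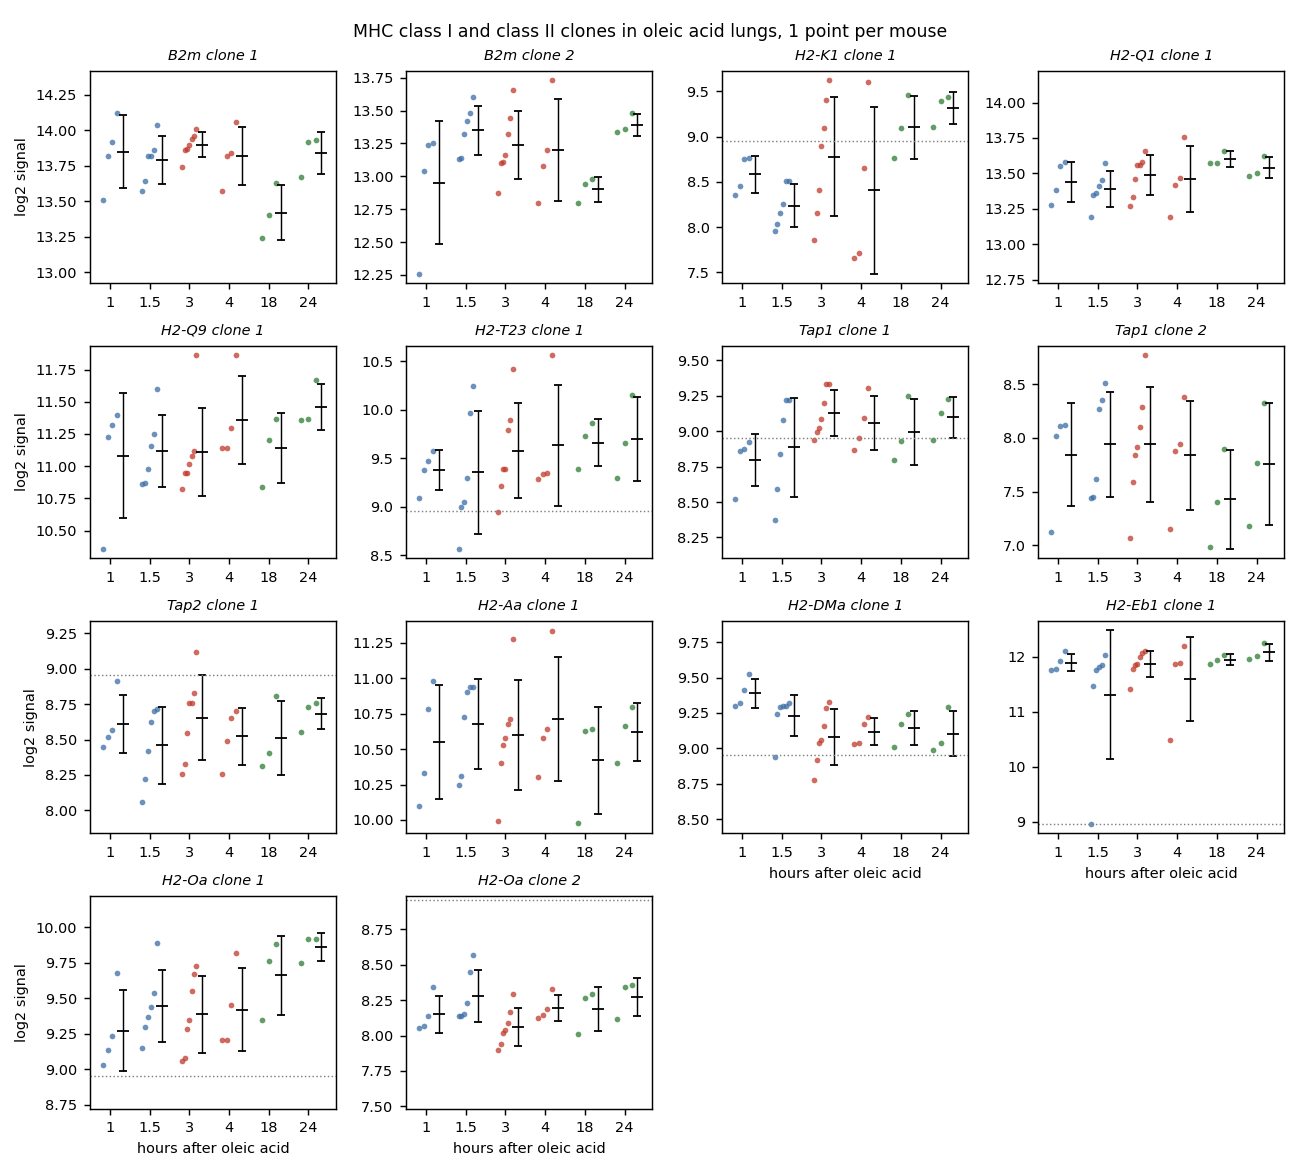
Log2 signal (y axes) of class I and class II clones against the time after OA in hours (x axes). Points are mice (4, 6, 7, 4, 3 and 3), bars the mean and SD, colours the stages, and the dotted line 8.95; 1 mouse at 1.5 h lies at 8.96 for H2-Eb1.

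Among class II genes, H2-Aa, the alpha chain of the I-A molecule, overlapped at every time. It read 10.10, 10.33, 10.78 and 10.98 at 1 h, 10.25 to 10.94 (median 10.81) at 1.5 h, 10.00 to 11.28 (median 10.58) at 3 h and 10.30, 10.58, 10.64 and 11.33 at 4 h. It read 9.98, 10.63 and 10.64 at 18 h and 10.40, 10.66 and 10.80 at 24 h, and late minus early was -0.09 (-0.46 to 0.28, adjusted p = 0.818). H2-Eb1, the gene of a class II beta chain, read 8.96 to 12.10 (median 11.80) early. It read 10.48 to 12.19 (median 11.86) in the intermediate and 11.86 to 12.26 (median 11.99) in the late stage. All 6 late mice were above its early median, and late minus early was 0.41 (-0.24 to 1.07, adjusted p = 0.485).

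The genes that edit class II loading differed by small amounts. H2-DMa, a chain of H2-DM, read 8.94 to 9.53 (median 9.30) early, 8.78 to 9.33 (median 9.06) in the intermediate and 8.99 to 9.29 (median 9.11) in the late stage. Intermediate minus early was -0.21 ± 0.07 (adjusted p = 0.124), and -0.22 (adjusted p = 0.0321) with the microarrays as units. The brighter H2-Oa clone read 9.35, 9.76 and 9.88 at 18 h and 9.75, 9.92 and 9.92 at 24 h, beside 9.03 to 9.89 (median 9.33) in the early mice. All 6 late mice were above that median. Late minus early was 0.41 ± 0.13 (adjusted p = 0.0996), and 0.42 (adjusted p = 0.0258) with the microarrays as units. It was not called with the letter L number as a block. Its partner H2-Ob gave 0.24 (adjusted p = 0.136) and the dimmer H2-Oa clone 0.01 (adjusted p = 0.941), and both were dim. H2-Ke2, the prefoldin gene of the region, fell from early to intermediate in 1 clone (-0.30 ± 0.08, adjusted p = 0.049), and its brighter clone differed by 0.11 (adjusted p = 0.528). With the letter L number as a block the first was -0.33 (adjusted p = 0.11), and its call was lost in 21 of the 27 fits that leave out a mouse.

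The member called over the 6 time points was Ifi204, an interferon-inducible nuclear protein of a family that binds DNA. Its brighter clone read 9.33, 9.57, 9.61 and 9.89 at 1 h, 9.24 to 9.93 (median 9.60) at 1.5 h, 8.63 to 9.43 (median 8.86) at 3 h and 8.85, 9.02, 9.30 and 9.37 at 4 h. It read 9.23, 9.31 and 9.48 at 18 h and 9.19, 9.40 and 9.63 at 24 h. All 11 intermediate mice were below the early median of 9.59, 7 of them below every early mouse, and all 6 late mice were above the intermediate median of 9.02. The adjusted p over the 6 time points was 0.0411, and the call was lost with the letter L number as a block (0.0894), on median-centred scanner signals (0.0581), on microarrays of either title ending (0.134 and 0.202) and in 20 of the 27 fits that leave out a mouse (0.0502 to 0.0829). Intermediate minus early was -0.55 ± 0.11, 0.681 times the early signal (95% interval -0.78 to -0.33, adjusted p = 0.00537). With the letter L number as a block it was -0.54 (adjusted p = 0.0376). On microarrays with titles ending in AO it was -0.62 (adjusted p = 0.0214), and on those ending in OA -0.50 (adjusted p = 0.063). The dimmer Ifi204 clone differed by -0.19 (adjusted p = 0.337).

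Ifi205, of the same family, went the other way. Its brighter clone read 9.48, 9.63, 9.77 and 10.66 at 1 h, 8.90 to 11.02 (median 9.96) at 1.5 h, 10.24 to 12.07 (median 10.58) at 3 h and 10.69, 10.81, 11.14 and 11.76 at 4 h. It read 9.75, 10.16 and 10.26 at 18 h and 9.44, 10.38 and 10.50 at 24 h. All 11 intermediate mice were above the early median, 4 of them above every early mouse, and all 6 late mice were below the intermediate median. Intermediate minus early was 1.08 ± 0.27, 2.12-fold (95% interval 0.53 to 1.64, adjusted p = 0.0305; 0.0532 with the letter L number as a block). Late minus intermediate was -0.93 ± 0.31 (adjusted p = 0.113), and -0.91 (adjusted p = 0.0273) with the microarrays as units. The other Ifi205 clone, dim at a mean of 6.82, differed by 0.004 (-0.29 to 0.30) between intermediate and early.

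**Figure D3:**
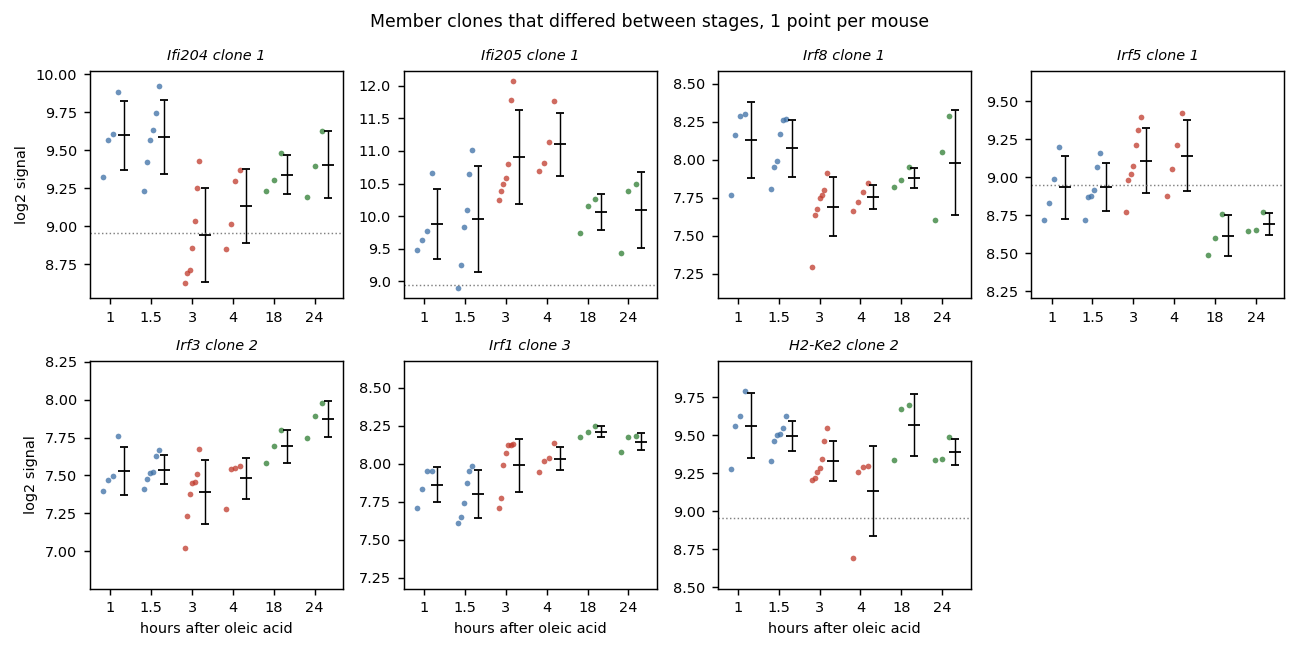
Log2 signal (y axes) of the 7 member clones with an adjusted p under 0.05 in a comparison, against the time after OA in hours (x axes). Points are mice, bars the mean and SD, colours the stages, and the dotted line 8.95; Ifi204 is low and Ifi205 high at 3 and 4 h.

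Of the interferon regulatory factors, Irf8, Irf5, Irf3 and Irf1 each had 1 clone that differed between stages. Irf8, a factor of myeloid and B cell development, read 7.77 to 8.30 (median 8.17) early, 7.30 to 7.91 (median 7.75) in the intermediate and 7.61 to 8.29 (median 7.91) in the late stage. All 11 intermediate mice were below the early median. Intermediate minus early was -0.38 ± 0.09, 0.769 times the early signal (adjusted p = 0.0241; 0.061 with the letter L number as a block). Its other clone differed by -0.07 (adjusted p = 0.822), and both clones were dim.

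Irf5, a factor downstream of Toll-like receptors, was lowest in the late stage. It read 8.49, 8.60 and 8.76 at 18 h and 8.65, 8.66 and 8.78 at 24 h, beside 8.78 to 9.43 (median 9.08) in the intermediate and 8.72 to 9.20 (median 8.90) in the early mice. All 6 late mice were below the intermediate median. Late minus intermediate was -0.47 ± 0.10, 0.721 times the intermediate signal (adjusted p = 0.00637; 0.11 with the letter L number as a block). The membrane held 1 clone of it, which was dim.

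Higher late were 1 of 2 clones of Irf3, which drives early type I interferon, and 1 of 4 clones of Irf1, which interferon gamma induces. The dimmer Irf3 clone read 7.59, 7.70 and 7.80 at 18 h and 7.75, 7.89 and 7.98 at 24 h, beside 7.02 to 7.68 (median 7.46) in the intermediate mice. Late minus intermediate was 0.35 ± 0.08 (adjusted p = 0.0221; 0.517 with the letter L number as a block), and 0.24 ± 0.10 (adjusted p = 0.211) for its brighter clone. The third Irf1 clone, also dim, read 8.18, 8.21 and 8.25 at 18 h and 8.08, 8.18 and 8.18 at 24 h, beside 7.61 to 7.99 (median 7.85) in the early mice. Its early and late values did not overlap, and how many of all clones do the same was not counted. Late minus early was 0.35 ± 0.08, 1.27-fold (adjusted p = 0.0242; 0.998 with the letter L number as a block). Both differences turned when the serum means were subtracted, to -0.14 for Irf3 and -0.76 for Irf1.

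The other clones of Irf1 show how far 1 clone can be read. Late minus early was 0.25 and 0.32 in the 2 brighter clones and -0.04 in the dimmest one (adjusted p = 0.183, 0.0982 and 0.908). Across the 27 mice, 2 clones of a member gene correlated at a median r of 0.229 over 33 pairs (-0.234 for Ifi205 to 0.875 in Gbp2), and clones of 2 different members at 0.0249 over 2820 pairs. These values share their microarrays and are a description. Clones of 1 symbol thus often did not rise and fall together from mouse to mouse.

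**Figure D4:**
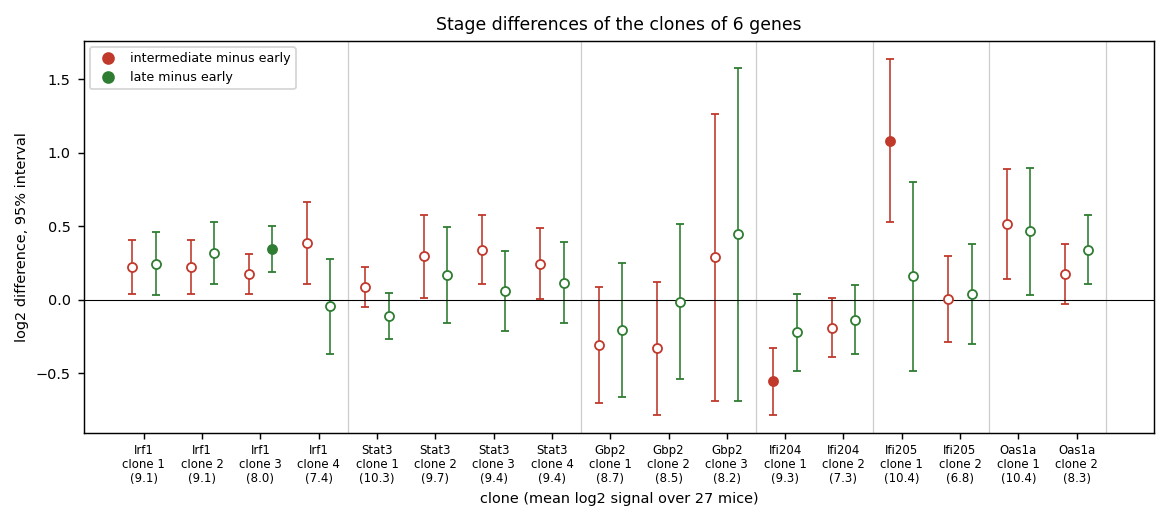
Log2 differences between intermediate and early (red) and late and early (green) on the y axis for all clones of Irf1, Stat3, Gbp2, Ifi204, Ifi205 and Oas1a (x axis, with each clone's mean log2 signal). Bars are 95% intervals and filled points have an adjusted p under 0.05; the Ifi205 clones lie at 1.08 and 0.004 for intermediate minus early.

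The Stat genes described here gave no call. Stat2 had time point means between 8.86 and 9.11, and the 4 clones of Stat3, a transducer of interleukin 6, differed by 0.09, 0.30, 0.34 and 0.25 between intermediate and early, none with an adjusted p under 0.05.

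The antiviral genes of the Oas, Gbp and Ifit families gave no call either in the fit on mouse means. The brighter clone of Oas1a, an oligoadenylate synthetase that senses double-stranded RNA, had means of 10.35 ± 0.52 (SD, n = 4) at 1 h, 9.91 ± 0.54 (SD, n = 6) at 1.5 h and 10.84 ± 0.48 (SD, n = 4) at 4 h. Intermediate minus early was 0.51 ± 0.18 (adjusted p = 0.138), and 0.55 (adjusted p = 0.0294) with the microarrays as units. Oas3 differed by 0.45 ± 0.15 between late and early (adjusted p = 0.106), and 0.46 (adjusted p = 0.0293) with the microarrays as units. It was not called with the letter L number as a block. The 3 clones of Gbp2, a guanylate-binding GTPase, differed by -0.31, -0.33 and 0.29 between intermediate and early (adjusted p = 0.438, 0.477 and 0.812). All 3 were dim. Ifit2, which restrains translation, had its lowest mean at 3 h, 7.33 ± 0.41 (SD, n = 7), and its highest at 24 h, 8.08 ± 0.33 (SD, n = 3). It was dim, and microarrays of 1 mouse differed by a median of 0.78. With the microarrays as units and the title ending as a block, Ifit2 was called over the 6 time points (adjusted p = 0.0132). That setting called 6.11% of all clones. Ifi30, a lysosomal reductase of antigen processing, had means between 9.42 and 9.68. Irf7, the master factor of type I interferon, was dim, with means between 6.48 and 6.80.

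Of 74 clones of pathway genes that the naming rule does not catch, 0 differed over the 6 time points in the limma fit, beside 2.01% of all clones. At an unadjusted p under 0.05 there were 6 (8.11% beside 15.8%), and with the microarrays as units also 6, beside 5.74% of all clones. They were 9 clones of class I loading genes, 17 of the class II pathway, 19 of interferon ligands, receptors and signalling and 31 of other interferon-induced genes, with 2 clones in 2 lists. Between stages 1 clone was called. Tyk2, a kinase of the type I interferon receptor, rose by 0.26 ± 0.07 from early to intermediate (adjusted p = 0.0482) and fell again late (-0.30 ± 0.08, adjusted p = 0.043). The 4 clones of Cd74, the invariant chain of class II, differed by -0.12 to 0.05 between intermediate and early.

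B cells carry class II and Irf8, and 5 of 14 clones of their markers were lower in the intermediate than in the early stage, beside 1.01% of all clones; the other 9 were not called. The log2 difference was -1.04 and -0.48 for 2 clones of Ms4a1, and 0.26 (adjusted p = 0.438) and -0.20 (adjusted p = 0.349) for its other 2. It was -0.55 for the called clone of Cd79b and -0.60 (adjusted p = 0.0999) for the other one, and -0.90 to 0.20 for 4 clones of Igh-6, none of them called. All 5 called clones were dim. The log2 of the summed signal of the 14 clones was 12.15 to 13.64 in early, 11.71 to 12.85 in intermediate and 12.25 to 12.62 in late mice, a sum over clones on scales of their own in which the bright ones weigh most. The 3 of the 14 clones above 8.95 were all of Igh-6. Of 13 T cell clones, 1 was lower (Cd3g, -0.43), and of 9 macrophage, 4 dendritic and 5 neutrophil clones none was called between these stages. The part of B cells in the fall of Ifi204 and Irf8 was not tested.

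The serum mice stood apart from the OA mice over the whole membrane. Over the 5 shared time points, 56 of 76 members (73.7%) differed between OA and serum in a limma fit, beside 61.6% of all clones. Of the members, 25 (32.9%) were higher, beside 34.3% of all clones, and 31 (40.8%) lower, beside 27.3%. The count was 23 on the fitted scanner signals and 20 of 30 among bright clones. The share of all clones in these settings is not given, so these counts are not read as particular to the members. At an unadjusted p under 0.05, 75% of the members and 65.3% of all clones differed. The interval lay inside 2-fold for 56 members (73.7%) and 82.9% of all clones. Of the 2159 spots without a gene name, 59.2% differed too, against 0.139% of them over the 6 OA times. The sets of microarrays and the agent cannot be told apart here, so no member is described as changed by OA. The clones of Oas1a show the range, since OA minus serum was 3.63 ± 0.17 for the brighter and 0.07 (-0.12 to 0.26) for the dimmer one. It was -1.62 for H2-K1, 0.83 and 0.22 for the B2m clones and -0.44 and -1.57 for those of Tap1.

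**Figure D5:**
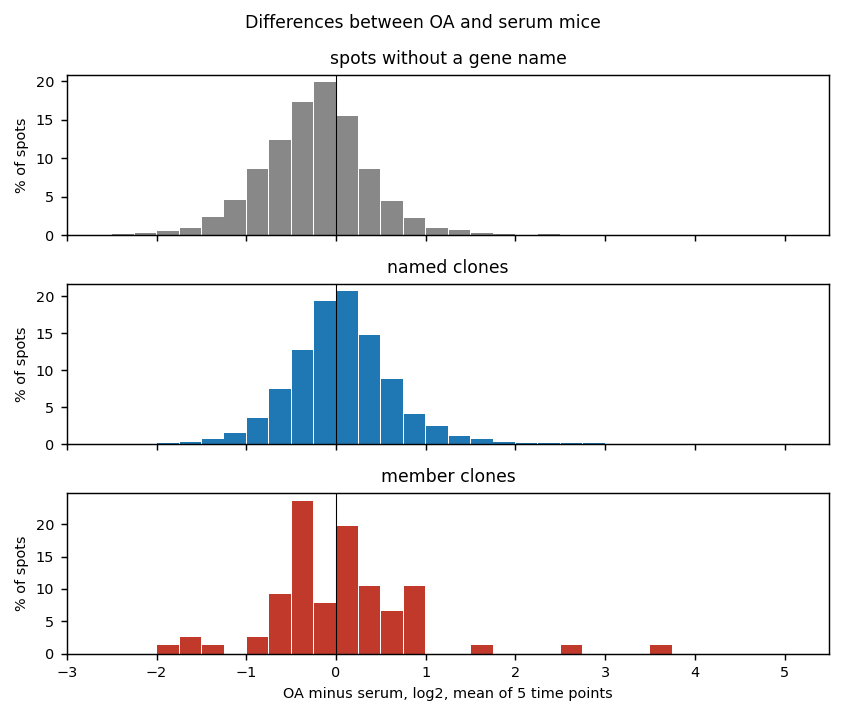
Share of spots in percent (y axes) by the OA minus serum log2 difference (x axis), for 2159 spots without a gene name, 7625 named clones and 76 member clones. All 3 sets spread widely: 38.7%, 32.5% and 38.2% of them differ by more than 0.5 in either direction.

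Serum values, on the scale normalized over all microarrays, can be set beside the OA time courses, with no test among the 8 serum mice. The brighter Ifi204 clone read 9.21, 9.28 and 9.24 in the early serum mice, 8.53 and 8.97 at 3 h and 7.84, 9.12 and 9.21 late, so both 3 h serum mice were below the early ones as well. With the serum mean of the same time subtracted, and that of 3 h for the 4 h mice, its intermediate minus early difference was -0.05. Such a fit treats the mean of 1 or 2 serum mice as free of error and called 36.1%, 26.8% and 23.7% of all clones in the 3 stage comparisons, so no call is read from it. Ifi205 read 7.13, 8.25 and 7.37 early, 7.59 and 7.63 at 3 h and 7.48, 7.64 and 7.57 late in serum mice, and its difference after subtraction was 1.03. All these serum values of Ifi205 were below 8.86, the level on this scale under which a clone is dim. A rise like that in OA mice may not show at such signals, so whether serum mice lack it was not tested. The third Irf1 clone read 7.92, 7.96 and 7.54 early and 8.31, 9.11 and 8.98 late in serum mice, higher late as in OA mice. After subtraction its late minus early difference was -0.76. Some other members were also high in late serum mice. The brightest Gbp2 clone read 8.71, 11.34 and 10.20 there, beside 8.72 to 8.94 early and 8.44 to 8.98 in late OA mice. The brightest Irf1 clone read 9.13, 10.55 and 10.06, and the brighter Tap1 clone 8.88, 10.16 and 9.80. Oas3 stayed at 7.83, 7.99 and 7.70 late, beside 7.80 to 8.03 early. Such values enter the subtraction and the OA minus serum differences. H2-K1 read 10.02, 10.40 and 9.90 early and 10.43, 10.45 and 11.04 late in serum mice, all late ones above the early ones. Irf5 read 8.07, 8.61 and 8.27 early, 8.07 and 8.32 at 3 h and 8.38, 8.45 and 8.48 late, with no late serum mouse below the 3 h ones, and its late minus intermediate difference after subtraction was -0.70.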

How the data were processed

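The authors quantified membrane images with Bzscan2, corrected neighbourhood effects and local background and quantile-normalized. The deposited log2 table of OA microarrays has a median of 8.21 on each; its ranks are those of the deposited scanner intensity. OA and serum were compared from that intensity (log2, floor 1, quantile-normalized over all microarrays), whose median log2 was 6.75 to 9.36 on OA and 5.73 to 8.39 on serum microarrays.

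Microarrays of a mouse were averaged (50 of 27 OA mice, 9 of 8 serum mice). A microarray titled P4L1 at 1H30 was left out, and 1 of mouse P7L3 labelled with 2 times was taken as 3 h. limma 3.58.1 (R 4.3.3) was fitted with 6 time points, a stage being the mean of 2, and Benjamini-Hochberg adjustment over 7625 clones. Clones are named if called over the 6 times, among the 8 widest ranges of bright clones in a group, or of 23 fixed symbols. Members and lists were chosen with earlier results of these data known. Alternatives were other scalings, a filter on dim clones, the letter L number as a block, microarrays as units, serum subtraction and leaving out each mouse; those by title ending were chosen after seeing the data. The fit was tested on simulated data, and SAM, the authors' test, was not run. Some genes are not reported here. The number of microarrays limits the precision. The p-values measure the spread of these mouse means, which holds the noise of the microarrays as well as differences between mice. With the microarrays as units, 2 microarrays of 1 mouse correlated at 0.172 within clones.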

Additional observations from a re-analysis of the deposited data

Results flagged for a closer look

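In 156 groups of 4 to 7 mice (39 clones at 4 time points), 14 groups held 1 mouse far from the others by Dixon's criterion, which chance gives in about 1 in 20 groups. For class I, the lowest 1 h mouse read 10.36 (nearest 11.23) for H2-Q9, 8.52 (nearest 8.86) for the brighter and 7.125 (nearest 8.02) for the dimmer Tap1 clone. The highest mouse read 11.86 (nearest 11.12) for H2-Q9 at 3 h and 10.56 (nearest 9.345) for H2-T23 at 4 h. For class II, the lowest 1.5 h mouse read 8.94 (nearest 9.245) for H2-DMa and 8.96 (nearest 11.46) for H2-Eb1. For the interferon genes, the lowest 1.5 h mouse read 8.895 (nearest 9.84) for Oas1a and 7.86 (nearest 8.865) for Stat2. The lowest Irf7 mouse read 5.905 (nearest 6.515) at 3 h and 6.3 (nearest 6.72) at 4 h, the lowest 4 h mouse 7.28 (nearest 7.54) for the dimmer Irf3 clone and 8.69 (nearest 9.255) for H2-Ke2, and the highest 1 h mouse 9.89 (nearest 9.58) for Ifi30.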

How the results depend on the processing

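Over the 6 time points, 1 member was called, with 0 on median-centred scanner signals, 0 with the letter L number as a block, 0 on microarrays with titles ending in AO, 5 with the microarrays as units (438 of all clones beside 153), 5 with the title ending as a block and 42 with serum subtracted. Between intermediate and early the count was 4, with 1 under the letter L block (69 of all clones beside 196), 1 on AO and 1 on OA titles, 0 on mice with 2 or 3 after the letter L and 25 with serum subtracted. Between late and intermediate it was 2, with 0 among bright clones, 0 under the letter L block, 0 on AO titles, 0 on mice with 1 after the letter L, 6 with the microarrays as units, 6 with the title ending as a block and 29 with serum subtracted. Between late and early it was 1, with 0 under the letter L block, 0 on AO and 0 on OA titles, 6 with the microarrays as units, 6 with the title ending as a block, 2 with the P4L1 microarray and 24 with serum subtracted. The count of pathway genes was 0, with 6, 6 and 44 in the last such settings (microarrays, title ending, serum). Serum subtraction takes 1 serum mean from every mouse of a time (that of 3 h for 4 h), and 55.9% of all clones were then called over the 6 times; it turned Irf3 to -0.14 and Irf1 to -0.76. Between OA and serum the member count was 56, with 20 of 30 bright clones and 23 on fitted signals. The share of all clones in these settings is not given. Leaving out each mouse gave 0 to 1 calls over the 6 times, 1 to 4, 1 to 3 and 0 to 6 between stages (6 without P4L3, 4 without P2L3, 3 without P4L2 between late and early), 0 to 1 for pathway genes and 52 to 58 for OA versus serum. Ifi204 and Irf5 kept their stage calls in each of these 27 fits. Ifi205 lost its call at 0.97 without P13L3, 1.02 without P2L2, 1.04 without P4L2, 1.08 without P11L2, 1.07 without P3L2 and 0.98 without P6L2, Irf8 at -0.35 without P2L2, -0.37 without P11L2, -0.36 without P4L1 and -0.37 without P3L2, Irf3 at 0.35 without P11L1, 0.31 without P13L3, 0.32 without P8L1, 0.34 without P6L1 and 0.32 without P12L1 and Irf1 at 0.34 without P11L1, 0.34 without P7L1, 0.34 without P2L2, 0.34 without P6L1, 0.35 without P12L1 and 0.32 without P3L2. H2-Ke2 lost it in 21 and Ifi204 over the 6 times in 20 of 27 fits. The cause was not tested. No paired analysis was possible because the mouse codes are not shared between the groups. Dim signal limits what the members below 8.95 can show.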
